A study of Mus musculus with 12 samples.

Results

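The proteasome subunit genes were followed across mouse B cells with and without the histone demethylase LSD1. The members were all listed genes whose Entrez ID maps to a mouse symbol of the form Psma, Psmb, Psmc, Psmd, Psme, Psmf or Psmg plus a number. The rule used no measured value and found 49 of 9842 listed genes. Of these, 47 encode subunits, activators, an inhibitor or assembly chaperones. Psmc3ip, a factor of meiotic recombination, and Psme3ip1, a partner of a proteasome activator, match by name and are given apart.

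The proteasome is the protease that degrades ubiquitin-tagged proteins. Its 20S core is a barrel of alpha and beta rings, with the cutting sites on the beta subunits Psmb5, Psmb6 and Psmb7, and the 19S cap recognises, unfolds and feeds substrates into it. In immune cells, and in many cells after interferon, Psmb8, Psmb9 and Psmb10 take the place of Psmb5, Psmb6 and Psmb7 to form the immunoproteasome, which together with the 11S activator Psme1 and Psme2 shapes the peptides loaded on MHC class I.

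The 12 libraries, 3 in each of 4 groups, were made from B cells of female C57BL/6J mice. The eMZB_KO group held LSD1 knockout B cells and the eMZB_WT group wild-type B cells, both kept in culture with BAFF, a B cell survival factor, and DL1, a ligand of Notch, over 3 days before a sort for B220, CD21 and CD1d. The TrB_KO group held LSD1 knockout splenic transitional B cells and the TrB_WT group wild-type ones, unstimulated and sorted for B220 and CD93. Each sort also removed cells positive for Thy1.1, F4/80 or CD11b, and each library came from 2000 cells. The knockout allele and the Cre that made it are not given in the labels, and neither is whether replicates were separate animals, so p-values measure the spread between these libraries. The labels name the comparisons as cell type and genotype. Cell type, culture and surface gate changed together, so their parts in any difference between eMZB and TrB groups cannot be told apart.

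The libraries held 7.242 to 19.35 M reads by the FPKM steps, of which 1.96 to 8.78 M lay in listed genes, and the members took 12378 to 48579 of them per library. The share in listed genes was 27.8% to 41.7% in eMZB libraries, 17.2%, 20.9% and 61.6% in TrB_KO libraries and 16.7% to 20.1% in TrB_WT libraries. Values are therefore given as scaled FPKM: the deposited value (fragments per kilobase of gene per M reads) divided by a median-of-ratios factor of the library. TrB_KO replicate 3 stood apart, with 285 of the listed genes reading 0, while the remaining libraries had 19 to 65. Kdm1a, which encodes LSD1, had 2.65, 2.53 and 2.66 scaled FPKM in eMZB_KO, against 7.53, 8.63 and 4.68 in eMZB_WT. It had 3.35, 2.56 and 2.99 in TrB_KO, against 8.54, 7.93 and 3.47 in TrB_WT. The libraries labelled eMZB_WT replicate 3 and TrB_WT replicate 3 lay nearest the knockout values, and neither difference passed the test (log2 -1.10, limma adjusted p = 0.148, in eMZB cells and -0.87, adjusted p = 0.249, in TrB cells). None of the listed genes belonged to the T cell, neutrophil, dendritic, NK or stromal marker lists, and the gate marker Cd93 averaged 0.831 in eMZB_KO and 0.873 in eMZB_WT, against 5.22 in TrB_KO and 5 in TrB_WT. Cr2, which encodes CD21, averaged 64.4 in eMZB_KO, 65.5 in eMZB_WT, 13.3 in TrB_KO and 8.77 in TrB_WT, and Cd1d1, of the other eMZB gate, 27.8 in eMZB_KO, 22.8 in eMZB_WT, 22.6 in TrB_KO and 22.3 in TrB_WT.

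The catalytic pairs carry the contrast that the rest of the proteasome is read against, so the 250 bases upstream of 4 of their genes are shown (RefSeq, GRCm38.p6, each on its own gene's strand). Capitals mark, in Psmb5, the antioxidant response element core TGACNNNGC, which the factors NRF1 and NRF2 can bind. In Psmb8 they mark the gamma-activated site TTCNNNGAA, in Psmb9 the CCAAT box on the opposite strand, and in Psmb10 the E-box CACGTG.
Psmb5, chr14:54617996-54618245, minus strand: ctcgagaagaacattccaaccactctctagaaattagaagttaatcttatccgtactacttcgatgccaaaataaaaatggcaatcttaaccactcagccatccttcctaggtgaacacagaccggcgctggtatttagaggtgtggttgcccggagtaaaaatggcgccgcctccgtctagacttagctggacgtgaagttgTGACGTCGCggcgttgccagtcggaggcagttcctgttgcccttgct
Psmb8, chr17:34197945-34198194, plus strand: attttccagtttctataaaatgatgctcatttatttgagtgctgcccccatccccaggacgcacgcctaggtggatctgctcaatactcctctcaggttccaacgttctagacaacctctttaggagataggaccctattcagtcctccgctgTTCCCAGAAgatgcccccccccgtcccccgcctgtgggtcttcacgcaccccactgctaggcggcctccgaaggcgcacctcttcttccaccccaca
Psmb9, chr17:34187331-34187580, minus strand: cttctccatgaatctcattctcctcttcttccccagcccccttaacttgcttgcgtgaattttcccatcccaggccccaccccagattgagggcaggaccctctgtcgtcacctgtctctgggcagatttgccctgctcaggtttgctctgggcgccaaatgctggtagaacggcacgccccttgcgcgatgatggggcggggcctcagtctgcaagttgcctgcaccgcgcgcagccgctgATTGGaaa
Psmb10, chr8:105938393-105938642, minus strand: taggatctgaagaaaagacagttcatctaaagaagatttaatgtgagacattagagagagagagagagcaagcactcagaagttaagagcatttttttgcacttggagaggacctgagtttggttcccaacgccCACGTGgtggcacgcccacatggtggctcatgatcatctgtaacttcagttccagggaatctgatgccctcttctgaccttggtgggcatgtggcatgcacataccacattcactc

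Both strands were searched over these 250 bases, for 32851 promoters in all and for the 42 members with an entry. The antioxidant response element core was in 5 of the 42 (11.9%; Psmb5, Psmb6, Psmc6, Psmd9 and Psmd12), in 13.8% of the 7831 listed genes with an entry, from which the members come, and in 10.2% of all promoters. The CCAAT box was in 15 of 42 (35.7%), in 41.5% of listed genes and in 33.8% of all promoters, and the E-box in 5 (11.9%), 10.3% and 6.02%. The interferon-stimulated response element core (GAAA, NN, GAAA) was in 3 of 42 (7.14%; Psmb3, Psmd4 and Psmd9), in 3.52% of listed genes and in 2.98% of all promoters. The gamma-activated site was in 2 of 42 (4.76%; Psmb8 and Psmg1), in 7.24% of listed genes and in 7.02% of all promoters. A match is a description of the letters. The starts of Psmb9 and of the peptide transporter gene Tap1 lie 226 bases apart on opposite strands, so the Psmb9 window also spans the Tap1 start.

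The immunoproteasome genes Psmb8 and Psmb9 and the 11S gene Psme1 had the highest levels of the members on scaled FPKM, while Psmb10 ranked 14 of 49 by its mean. Psmb8 (Entrez 16913, chromosome 17, 34198195 to 34201454) had 93.5, 84.6 and 89 scaled FPKM in eMZB_KO, 95.1, 94.9 and 91.3 in eMZB_WT, 89, 86.2 and 79.2 in TrB_KO, and 77.6, 88.5 and 89.1 in TrB_WT. It had the highest mean of the members in each group, and in the eMZB libraries all its values lay above those of Psme1, while in the TrB libraries the ranges of both genes overlapped. The median member averaged 19.3 in eMZB_KO, 18.7 in eMZB_WT, 18.5 in TrB_KO and 17.7 in TrB_WT, so Psmb8 stood 4.58 to 5.03 times above it.
Psmb5 (Entrez 19173, chromosome 14, 54614120 to 54617995), the chymotrypsin-like subunit that Psmb8 replaces, had 35, 32.2 and 37.3 in eMZB_KO, 33.6, 36.3 and 31 in eMZB_WT, 27.1, 28.4 and 21.5 in TrB_KO, and 20.8, 23.5 and 26.9 in TrB_WT. All 6 eMZB values of Psmb5 lay above all 6 TrB values.

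Psmb9 (Entrez 16912, chromosome 17, 34182030 to 34187330) had 68.4, 63.1 and 66.2 scaled FPKM in eMZB_KO, 64.3, 65 and 61.1 in eMZB_WT, 53, 60.3 and 52.3 in TrB_KO, and 42.7, 57.7 and 62.8 in TrB_WT. Its TrB_WT values spread widely and overlapped those of eMZB_WT, while the TrB_KO values lay below those of eMZB_KO. Psmb6 (Entrez 19175, chromosome 11, 70525324 to 70527858), the caspase-like subunit that Psmb9 replaces, had 34.1, 29.8 and 34 in eMZB_KO, 34.8, 33 and 35.9 in eMZB_WT, 35.1, 33.3 and 35.5 in TrB_KO, and 31.7, 29.3 and 38.8 in TrB_WT. The groups of Psmb6 overlapped throughout.
Psmb10 (Entrez 19171, chromosome 8, 105935728 to 105938392) had 23.8, 19.3 and 22.4 in eMZB_KO, 20.8, 22 and 21.9 in eMZB_WT, 29.6, 30.9 and 29.1 in TrB_KO, and 34.1, 34.6 and 30.6 in TrB_WT. Every eMZB value of Psmb10 lay below every TrB value. Psmb7 (Entrez 19177, chromosome 2, 38588046 to 38643952), the trypsin-like subunit that Psmb10 replaces, had 6.58, 5.67 and 6.46 in eMZB_KO, 5.75, 6.96 and 6.25 in eMZB_WT, 5.76, 6.24 and 4.47 in TrB_KO, and 4.97, 4.76 and 6.87 in TrB_WT. Psmb7 was the lowest of the catalytic genes in every library. The gene length behind its FPKM was 3230 bases, against 1270 for Psmb10, so its level next to other genes depends on the annotated length, while differences between groups do not.

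The 11S activator genes Psme1 and Psme2 lie together on chromosome 14 and encode the cap that opens the core. Psme1 (Entrez 19186, 55578494 to 55581527) had 74.7, 70.9 and 68.5 scaled FPKM in eMZB_KO, 70.9, 65.5 and 61.7 in eMZB_WT, 78.8, 79.7 and 72.9 in TrB_KO, and 69.4, 70.8 and 83 in TrB_WT. Psme2 (Entrez 19188, 55587440 to 55591101) had 65.5, 61.7 and 69.9 in eMZB_KO, 63, 59.6 and 63.2 in eMZB_WT, 66.6, 52.6 and 49.5 in TrB_KO, and 48.1, 51.8 and 57.8 in TrB_WT. Both genes stayed among the 5 highest members. Psme2b is a near copy of Psme2 with 18.9 scaled FPKM on average, so reads of both may be shared and their levels are uncertain.

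**Figure D1:**
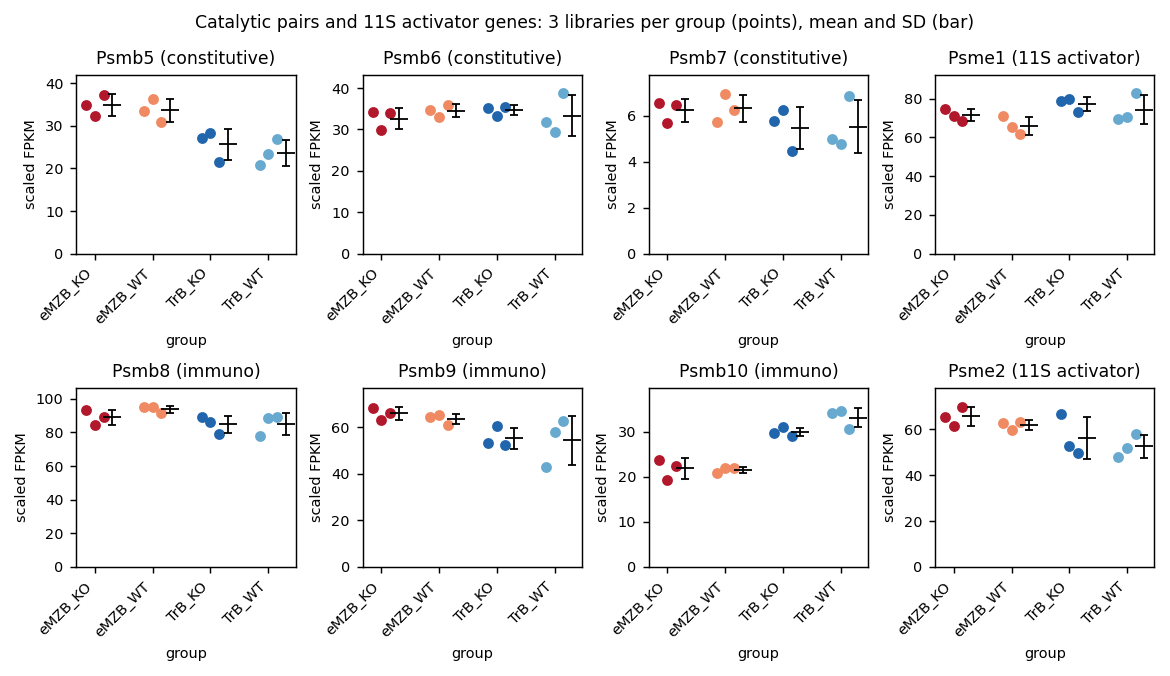
Scaled FPKM (vertical axis, from 0) of the 3 constitutive and 3 immunoproteasome catalytic genes and of Psme1 and Psme2 in eMZB_KO, eMZB_WT, TrB_KO and TrB_WT. Each point is a library and each bar the mean with its SD (n = 3). Psmb5 lay higher and Psmb10 lower in every eMZB library than in every TrB library on this scale (on deposited FPKM the wild-type log2 difference of Psmb10 was 0.24).

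Beside these, the alpha ring genes averaged 21.1 to 55.3 scaled FPKM over the 12 libraries, with Psma2 the highest and Psma5 the lowest. The structural beta genes averaged 17.2 to 50.5, the 19S ATPases 12.8 to 25.8 and the other 19S subunits 9.86 to 25.4. The assembly chaperones were lower, at 3.64 to 11.5, and Psme4, the PA200 activator, and Psmf1, the inhibitor PI31, were at 3.68 and 3.63. Psmc3ip was the lowest member at 1.74, with 8 to 62 reads per library.

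In wild-type cells, 18 of the 49 members passed the test between eMZB_WT and TrB_WT, 15 higher and 3 lower in eMZB_WT (limma, Benjamini-Hochberg adjusted p under 0.05 over 9842 genes). That is 36.7% of the members beside 27.4% of all listed genes, and 30.6% higher and 6.12% lower beside 14.6% and 12.7% of all genes. The median log2 change was 0.21 over the members and -0.00 over all genes. The genes that rose came mostly from the alpha ring and the assembly chaperones, which gave 10 of the 15, and the changes were 1.18 to 1.83 fold on the scaled FPKM + 1 scale. On deposited FPKM, where the median of all genes was log2 0.67, 12 members passed, all higher, beside 19.3% of all genes. Calls thinned without single libraries: 9 members passed without eMZB_WT replicate 1, beside 1944 of all 9842 genes. Without the library labelled eMZB_WT replicate 3 it was 11 beside 2063, and without TrB_WT replicate 1 it was 12 beside 2263. In these fits the share of members called, both directions together, lay near that of all genes. In the order given, 7, 10 and 8 members were called higher and 2, 1 and 4 lower. Over all genes 1025, 1100 and 1241 were higher and 919, 963 and 1022 lower. The share called higher was thus larger among members, and the share called lower smaller. Without both wild-type libraries of low Kdm1a, 16 passed, 15 higher and 1 lower, beside 20% of all genes.

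Of the 7 alpha ring genes 6 were called higher in wild-type cells, and 3 in knockout cells. In wild-type cells Psma6 was at log2 0.23 without passing (limma adjusted p = 0.184). That lay close to the called Psma1 at 0.24 (adjusted p = 0.0441). Psma7 had 34.5, 31.8 and 30.6 scaled FPKM in eMZB_WT, against 23.5, 22.3 and 21.3 in TrB_WT. It rose by 0.51 on the log2 scale (SE 0.13, limma adjusted p = 0.0137), but did not pass without eMZB_WT replicate 1 (adjusted p = 0.0566) or without both wild-type libraries of low Kdm1a (adjusted p = 0.0594). Psma2 had 63.4, 63.6 and 61.4 in eMZB_WT, against 43.2, 53.4 and 51.3 in TrB_WT, and rose by 0.35 (SE 0.09, adjusted p = 0.0113). Its groups did not overlap, and the call held in all 12 fits that left out a library. Psma3 had 43.7, 51.6 and 43.5 in eMZB_WT, against 31.2, 35 and 39.3 in TrB_WT (log2 0.39, SE 0.10, adjusted p = 0.0132). It did not pass without TrB_WT replicate 1 (adjusted p = 0.0558) or eMZB_WT replicate 2 (adjusted p = 0.0622), and it overlaps the listed gene 3110056K07Rik, whose reads a kit without strand cannot separate.

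Among the catalytic genes, the constitutive Psmb5 rose by 0.49 on the log2 scale (SE 0.12, adjusted p = 0.00916) and the immunoproteasome gene Psmb10 fell by 0.59 (SE 0.09, adjusted p = 0.000324) in eMZB_WT against TrB_WT. Both calls held in all 12 fits without a library. Psmb6 (log2 0.06, 95% interval -0.16 to 0.28), Psmb7 (0.18, -0.13 to 0.48), Psmb8 (0.14, -0.03 to 0.31) and Psmb9 (0.24, -0.02 to 0.50) did not pass. Psme1 was at -0.17 (-0.36 to 0.02) and Psme2 at 0.24 (0.00 to 0.47), neither past the threshold. The direction of Psmb10 rests on the scaling: on FPKM as deposited its log2 difference was 0.24, where the median of all genes was 0.67, and relative to that median it was -0.43.

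The 19S lid gene Psmd7 (Entrez 17463, chromosome 8, 107580380 to 107588482), which encodes the partner of the deubiquitinase Psmd14, had 18.7, 19.5 and 17.3 scaled FPKM in eMZB_WT, against 10.6, 12.3 and 11.6 in TrB_WT. It rose by 0.64 (SE 0.10, adjusted p = 0.000475), with no overlap between the groups. Psmd8, another lid subunit, had 18.2, 16.6 and 15.9 in eMZB_WT, against 19.9, 22.2 and 21.5 in TrB_WT, and fell by 0.31 (SE 0.08, adjusted p = 0.0133). On deposited FPKM Psmd8 was at 0.51, or -0.16 relative to the median gene, and the call was lost without the library labelled eMZB_WT replicate 3 (adjusted p = 0.0607) and without both libraries of low Kdm1a (adjusted p = 0.0871). The other 9 non-ATPases, and 5 of the 6 ATPases, did not pass, with Psmc6 higher at 0.36 (adjusted p = 0.0366).

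The nuclear activator Psme3 (Entrez 19192, chromosome 11, 101316213 to 101323537) had 26, 27.5 and 28.2 scaled FPKM in eMZB_WT, against 18.9, 16.6 and 17.5 in TrB_WT. It rose by 0.60 (SE 0.08, adjusted p = 0.000243). Its namesake partner Psme3ip1 had 10.5, 10.9 and 9.59 in eMZB_WT, against 12.3, 13.2 and 15.2 in TrB_WT (log2 -0.36, SE 0.10, adjusted p = 0.0201), so both genes differed in opposite directions on this scale. On deposited FPKM Psme3ip1 was at 0.44, or -0.23 relative to the median gene. It did not pass without TrB_WT replicate 3 as labelled (adjusted p = 0.0618), eMZB_WT replicate 1 (0.0506), eMZB_WT replicate 3 as labelled (0.0807) or both of low Kdm1a (0.169).

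Of the 7 assembly chaperones, 4 rose. Psmg1 (Entrez 56088, chromosome 16, 95979933 to 95990960), which helps build the alpha ring, had 4.76, 6.97 and 4.97 scaled FPKM in eMZB_WT, against 2.84, 1.95 and 2.96 in TrB_WT. It had the largest change of the members, log2 0.87 (SE 0.22, adjusted p = 0.012), from 19 to 156 reads per library, and it did not pass without eMZB_WT replicate 2 (log2 0.72, adjusted p = 0.055). Psmd5, which escorts the 19S base, had 12.7, 12.6 and 13.7 in eMZB_WT, against 8.61, 8.95 and 8.27 in TrB_WT (log2 0.55, SE 0.08, adjusted p = 0.000277). Its groups lay well apart. Psmd10, another base chaperone, rose by 0.40 (adjusted p = 0.0198) and Psmg2, the partner of Psmg1, by 0.41 (adjusted p = 0.0216). Psmd10 did not pass without TrB_WT replicate 2 (adjusted p = 0.0719), eMZB_WT replicate 1 (0.0784) or eMZB_WT replicate 2 (0.0581), and it overlaps the listed gene Atg4a. Psmc3ip, given apart, was at log2 -0.53 (adjusted p = 0.0911), with overlapping groups. Among the calls not described gene by gene, that of Psma1 held in 2 of the 12 fits without a library, Psmc6 in 6, Psma4, Psmb1 and Psmg2 in 8, and Psma5 in 9.

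**Figure D2:**
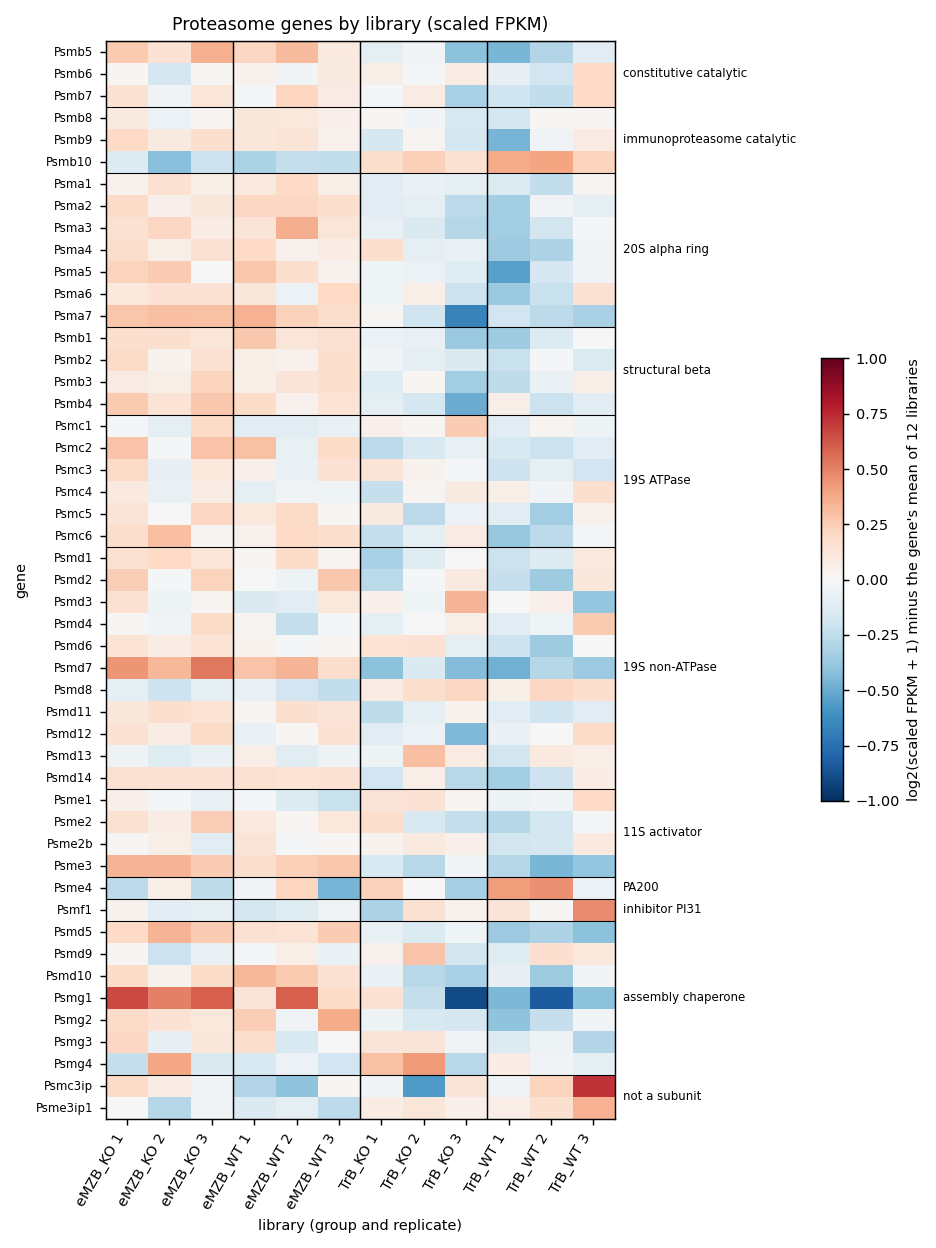
Level of each of the 49 members in each library, as log2(scaled FPKM + 1) minus the gene's mean over the 12 libraries (colour), with genes in rows by role and libraries in columns by group. Psmd7, Psme3 and Psmg1 are redder in the eMZB columns, and Psmb10 and Psmd8 are bluer there on this scale (in wild-type cells their log2 differences were 0.24 and 0.51 on deposited FPKM).

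In LSD1 knockout cells, 16 of the 49 members passed between eMZB_KO and TrB_KO, 14 higher and 2 lower in eMZB_KO. That is 32.7% of the members beside 27.4% of all genes, and 28.6% higher and 4.08% lower beside 14.2% and 13.2%. The median log2 change was 0.22 over the members and -0.01 over all genes. Deviations of same-numbered libraries of these groups correlated at 0.161, 0.106 and 0.292. Differently numbered libraries were not compared, so it was not shown that the numbers pair libraries. With the replicate as a block 9 members passed, 8 higher and 1 lower, beside 24.9% of all genes. When eMZB_KO replicate 1 was left out 8 members passed, beside 1978 of all 9842 genes. Without eMZB_KO replicate 3 it was 8 beside 1977, and without eMZB_KO replicate 2 it was 10 beside 2060. In the fit without TrB_KO replicate 3, the library that stood apart, 12 passed beside 2868. In each of these fits the share of members called, both directions together, lay below that of all genes. In these fits without a library, in the order given, 6, 6, 9 and 10 members were called higher and 2, 2, 1 and 2 lower. Over all genes 1025, 990, 1070 and 1354 were higher and 953, 987, 990 and 1514 lower. The share called higher was thus larger among members, and the share called lower smaller. The calls lost with the block were those of Psma2 (adjusted p = 0.0801), Psmb1 (0.0591), Psmc2 (0.0612), Psmd1 (0.0765), Psmd8 (0.0687), Psmd10 (0.0521) and Psmd12 (0.0842). Of the 16 calls, 7 held in all 12 fits without a library (Psma7, Psmb4, Psmb10, Psmd5, Psmd7, Psme3 and Psmg1). Unlike in wild-type cells, that of Psma2 did not, for example without eMZB_KO replicate 1 (limma adjusted p = 0.132) or TrB_KO replicate 3 (0.0856). On deposited FPKM, where the median of all genes was log2 0.23, 1 member passed, Psmg1, higher, beside 4.67% of all genes.

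Psmd7 had 20.9, 19.4 and 22.3 scaled FPKM in eMZB_KO, against 11.2, 13.6 and 11 in TrB_KO (log2 0.76, SE 0.10, limma adjusted p = 0.000129, and 0.00464 with the block). Psme3 had 29.6, 29.7 and 27.8 in eMZB_KO, against 20.8, 19 and 22.7 in TrB_KO (log2 0.46, SE 0.08, adjusted p = 0.00161, and 0.0182 with the block). In both genes the groups did not overlap, as in wild-type cells. Psmg1 had 7.3, 6.44 and 6.97 in eMZB_KO, against 4.82, 3.45 and 1.83 in TrB_KO, and rose by 0.92 (SE 0.22, adjusted p = 0.00902). TrB_KO replicate 3 was its lowest library, and without it the change was 0.63 (adjusted p = 0.0194). Psma7 had 32.9, 33.3 and 33.1 in eMZB_KO, against 27.1, 23.3 and 16.6 in TrB_KO (log2 0.57, SE 0.13, adjusted p = 0.00719). Psmb4, a structural beta subunit, had 33.3, 30.5 and 33.5 in eMZB_KO, against 25.7, 24.3 and 19.3 in TrB_KO (log2 0.48, SE 0.11, adjusted p = 0.00603). For both, TrB_KO replicate 3 was again the lowest library, and without it Psma7 was at 0.38 (adjusted p = 0.00659) and Psmb4 at 0.36 (adjusted p = 0.0134). Psmd5 rose by 0.35 (SE 0.08, adjusted p = 0.0058).

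The catalytic genes of knockout cells gave Psmb5 at 0.43 (SE 0.12, adjusted p = 0.0171) and Psmb10 at -0.44 (SE 0.09, adjusted p = 0.00268) in eMZB_KO against TrB_KO. Psmb5 did not pass without eMZB_KO replicate 1 (adjusted p = 0.0528) or eMZB_KO replicate 3 (adjusted p = 0.0716), while Psmb10 held in all 12 fits. Psmb6 was at -0.08 (95% interval -0.30 to 0.13), Psmb7 at 0.16 (-0.14 to 0.47), Psmb8 at 0.07 (-0.10 to 0.24) and Psmb9 at 0.25 (-0.01 to 0.51). Psme1 was at -0.11 (-0.30 to 0.08) and Psme2 at 0.23 (-0.00 to 0.47), and none of these 6 passed. Psmd8 was at -0.29 (adjusted p = 0.019, and 0.0687 with the block) and lost its call without TrB_KO replicate 2 (0.0555) or eMZB_KO replicate 2 (0.079). Psmd10 was at 0.36 (adjusted p = 0.032, and 0.0521 with the block) and lost its call without TrB_KO replicate 2 (0.0892), TrB_KO replicate 3 (0.0832), eMZB_KO replicate 1 (0.103) or eMZB_KO replicate 3 (0.102).

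In both genotypes 10 members were called higher (Psma2, Psma3, Psma7, Psmb1, Psmb5, Psmd5, Psmd7, Psmd10, Psme3 and Psmg1) and 2 lower (Psmb10 and Psmd8). Another 6 were called in wild-type cells (Psma1, Psma4, Psma5, Psmc6, Psme3ip1 and Psmg2) and 4 in knockout cells (Psmb4, Psmc2, Psmd1 and Psmd12), and the difference between the genotypes, tested as an interaction, passed for none of the 49 members. Over all genes 27.4% were called in each comparison. The number of all genes called in both genotypes was not counted, so no excess is read from the members called in both.

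**Figure D3:**
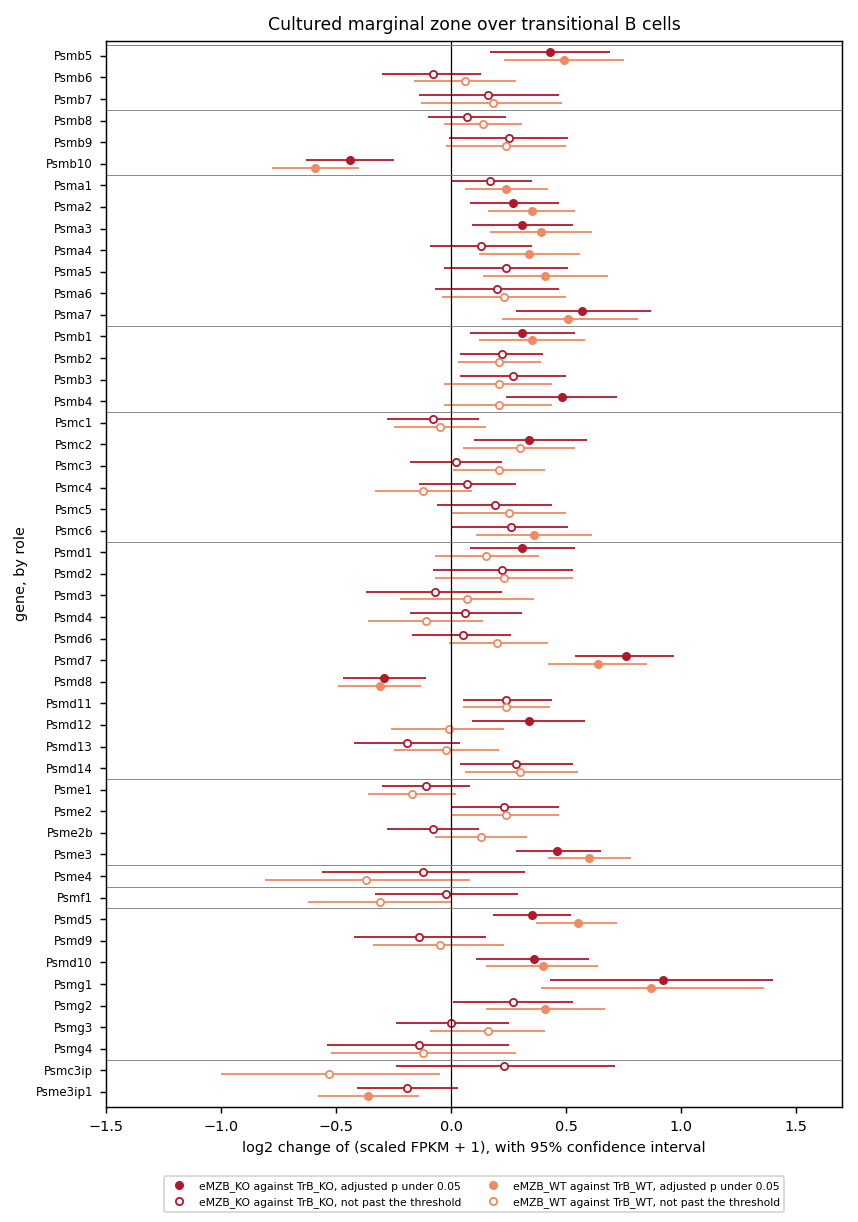
Log2 change of scaled FPKM + 1 (horizontal axis) with its 95% confidence interval for each member, by role, in eMZB_KO over TrB_KO (dark) and eMZB_WT over TrB_WT (light). Filled points passed adjusted p under 0.05. Psmg1 and Psmd7 lay farthest to the right, at 0.87 and 0.64 in wild-type and 0.92 and 0.76 in knockout cells, and Psmb10 lay to the left at -0.59 and -0.44; in wild-type cells Psmb10, Psmd8 and Psme3ip1 are on the other side of 0 on deposited FPKM.

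The ratio of an immunoproteasome gene to the constitutive gene it replaces needs no scaling between libraries. Psmb8 over Psmb5 was 2.67, 2.62 and 2.39 in eMZB_KO, 2.83, 2.61 and 2.94 in eMZB_WT, 3.28, 3.04 and 3.69 in TrB_KO, and 3.73, 3.77 and 3.31 in TrB_WT. Every eMZB ratio lay below every TrB ratio, by 0.38 on the log2 scale in knockout and 0.37 in wild-type cells. Psmb10 over Psmb7 was 3.62, 3.4 and 3.47 in eMZB_KO, 3.61, 3.15 and 3.5 in eMZB_WT, 5.14, 4.95 and 6.51 in TrB_KO, and 6.86, 7.26 and 4.45 in TrB_WT. The groups were again apart, with log2 differences of -0.65 in knockout and -0.82 in wild-type cells. Psmb9 over Psmb6 ran the other way, at 2, 2.12 and 1.94 in eMZB_KO, 1.85, 1.97 and 1.7 in eMZB_WT, 1.51, 1.81 and 1.48 in TrB_KO, and 1.35, 1.97 and 1.62 in TrB_WT. Its eMZB ratios lay above the TrB ratios in knockout cells and overlapped them in wild-type cells (log2 differences of 0.34 and 0.18). Without TrB_KO replicate 3 the knockout differences were -0.30 for Psmb8 over Psmb5, -0.53 for Psmb10 over Psmb7 and 0.29 for Psmb9 over Psmb6. Knockout and wild-type ratios overlapped for all 3 pairs in both cell types. These ratios were given no test.

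**Figure D4:**
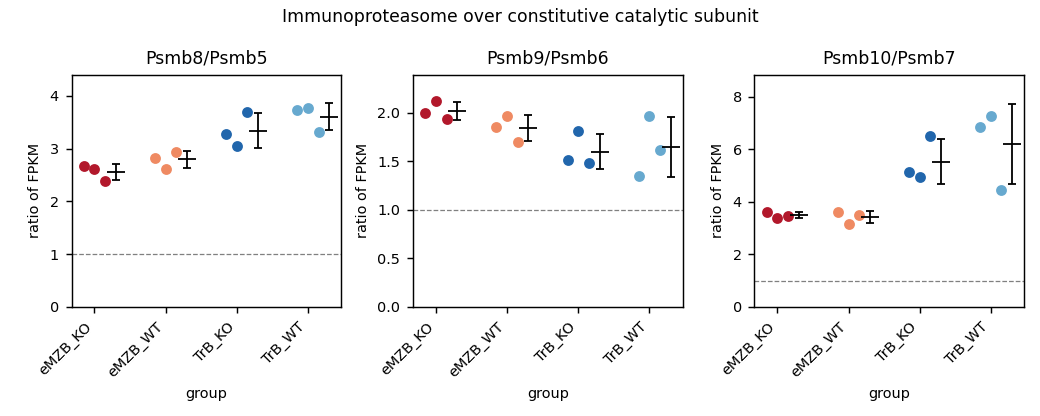
Ratio of FPKM (vertical axis, from 0) of each immunoproteasome catalytic gene to the constitutive gene it replaces, by group. Points are libraries, bars the mean with its SD (n = 3), and the dashed line marks equal FPKM. Every ratio lay above 1, and those of Psmb8 to Psmb5 and of Psmb10 to Psmb7 were lower in every eMZB library than in every TrB library.

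As a share of all listed FPKM, the members made up 1.20% ± 0.0221 in eMZB_KO, 1.17% ± 0.0176 in eMZB_WT, 1.08% ± 0.0252 in TrB_KO and 1.06% ± 0.0699 in TrB_WT (SD, n = 3 each). The 14 genes of the 20S core other than Psmb8, Psmb9 and Psmb10 made up 0.455% ± 0.00522 in eMZB_KO, 0.454% ± 0.00466 in eMZB_WT, 0.38% ± 0.0239 in TrB_KO and 0.375% ± 0.0308 in TrB_WT, and each eMZB library lay above each TrB library. The 5 immunoproteasome genes Psmb8, Psmb9, Psmb10, Psme1 and Psme2 made up 0.306% ± 0.0102 in eMZB_KO, 0.297% ± 0.00356 in eMZB_WT, 0.299% ± 0.0122 in TrB_KO and 0.298% ± 0.0214 in TrB_WT, with overlapping groups. In bulk libraries, fewer cells of a type and less RNA per cell cannot be told apart. B cell markers moved with cell type: of 5, 4 fell in each genotype on scaled FPKM (Cd79a, Cd79b, Ms4a1 and Pax5; in wild-type cells Ms4a1 was at 0.27 and Pax5 at 0.01 on deposited FPKM), and their summed level was 962 to 997 in eMZB_KO, 1028 to 1167 in eMZB_WT, 1567 to 1873 in TrB_KO and 1843 to 2148 in TrB_WT. Plasma cell markers, all 4 listed, summed to 22.8 to 31 in eMZB_KO, 37.4 to 44.6 in eMZB_WT, 38.9 to 87 in TrB_KO and 20 to 42.5 in TrB_WT. Of these, Prdm1 (log2 0.66, limma adjusted p = 0.00319) and Xbp1 (0.60, adjusted p = 0.00604) were called higher in eMZB_WT against TrB_WT, and Jchain (-3.27, adjusted p = 0.0175) and Sdc1 (-0.72, adjusted p = 0.0208) lower in eMZB_KO against TrB_KO. The Jchain and Sdc1 calls held in 9 and 8 of the 12 fits without a library. Of 4 listed macrophage and monocyte markers, Adgre1 (log2 -0.98) and Itgam (-0.56) were called lower in eMZB_WT against TrB_WT, and Ly6c2 (0.89) higher. The erythroid marker Hbb-bs was called lower there (-1.01), and in eMZB_KO against TrB_KO none of these was called. The part of all these markers in the proteasome differences was not tested.

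Loss of LSD1 was not followed by a called change in any proteasome gene. Between eMZB_KO and eMZB_WT, 0 of 49 members passed by limma, beside 0.406% of all genes. At an unadjusted p under 0.05 stood 0 members, beside 530 of all 9842 genes. By voom on recovered reads 0 members were called, beside 0.528% of all genes. Between TrB_KO and TrB_WT, 0 of 49 passed by limma, beside 0.498% of all genes, and 0 by voom, beside 0.213%. At an unadjusted p under 0.05 stood 5 members, all higher in TrB_KO, beside 975 of all 9842 genes, 582 of them higher. With both directions together, that share of members lies near the share of all genes. The higher ones alone, 5 of 49 beside 582 of 9842, are a larger share of the members. The member median was log2 0.04 in eMZB cells and 0.03 in TrB cells, beside -0.00 and 0.01 over all genes. Over the 47 genes other than Psmc3ip and Psme3ip1, the 95% intervals lay within -0.5 to 0.5 for 44 genes in eMZB cells and 42 in TrB cells, and within -1 to 1 for all 47 in both. No member passed in either comparison without TrB_KO replicate 3 or without both libraries of low Kdm1a, where 0.234% of all genes passed in eMZB cells and 0.549% in TrB cells.

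The catalytic genes gave these LSD1 differences. In eMZB_KO against eMZB_WT, Psmb5 was at log2 0.05 (95% interval -0.21 to 0.31), Psmb6 at -0.08 (-0.30 to 0.14), Psmb7 at -0.02 (-0.32 to 0.29), Psmb8 at -0.07 (-0.24 to 0.10), Psmb9 at 0.05 (-0.21 to 0.31) and Psmb10 at 0.01 (-0.18 to 0.20). In TrB_KO against TrB_WT, Psmb5 was at 0.11 (-0.15 to 0.37), Psmb6 at 0.07 (-0.15 to 0.28), Psmb7 at -0.01 (-0.31 to 0.30), Psmb8 at -0.00 (-0.17 to 0.17), Psmb9 at 0.04 (-0.22 to 0.30) and Psmb10 at -0.14 (-0.33 to 0.05). Psme1 was at 0.11 and Psme2 at 0.08 in eMZB cells, and in TrB cells Psme1 was at 0.05 and Psme2 at 0.09.
The largest positive difference in TrB cells was that of Psmd5, with 10.7, 10.2 and 11 scaled FPKM in TrB_KO, against 8.61, 8.95 and 8.27 in TrB_WT. These groups did not overlap, but the difference did not pass over all genes (log2 0.28, SE 0.08, adjusted p = 0.222). The largest negative one was Psmc3ip, with 1.62, 0.805 and 1.92 in TrB_KO, against 1.61, 2.11 and 3.41 in TrB_WT (log2 -0.46, adjusted p = 0.519). In eMZB cells Psmc3ip had the largest positive difference instead, with 2.05, 1.82 and 1.61 in eMZB_KO, against 1.18, 1.02 and 1.71 in eMZB_WT (log2 0.30, adjusted p = 1). The largest negative one there was Psmd10 at -0.11, with 7.31, 6.51 and 7.31 in eMZB_KO, against 8.16, 7.77 and 7.08 in eMZB_WT.

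**Figure D5:**
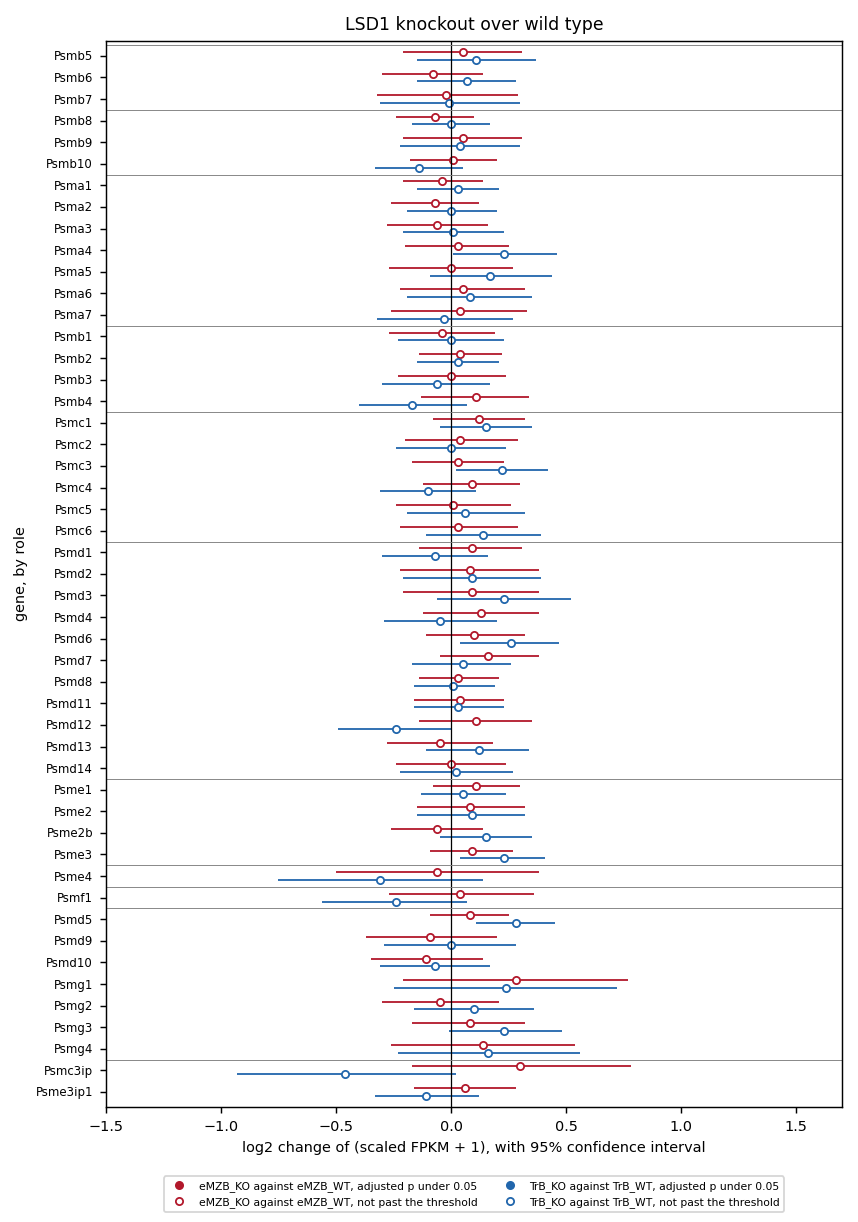
Log2 change of scaled FPKM + 1 (horizontal axis) with its 95% confidence interval for each member, by role, in eMZB_KO over eMZB_WT (red) and TrB_KO over TrB_WT (blue). No point is filled, since no member passed adjusted p under 0.05. The intervals of the 47 subunit and cofactor genes lay between -0.75 and 0.77.

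The interaction asks whether LSD1 loss acted differently in the cultured cells than in the transitional cells. It passed by limma for 0 of 49 members, beside 0.0102% of all genes, and by voom for 0, beside 0.0102%. At an unadjusted p under 0.05 stood 2 members, Psmc3ip and Psmd12, beside 674 of all 9842 genes. Psmc3ip had the largest interaction, log2 0.76 (SE 0.31, adjusted p = 0.686), and Psma4 the lowest, -0.21 (adjusted p = 0.838). For the catalytic genes, Psme1 and Psme2 the interactions were between -0.15 (Psmb6) and 0.15 (Psmb10). Markers of 2 lists were called with LSD1 loss. Of 6 macrophage and monocyte markers 4 were listed, without the defining Csf1r and Lyz2, and of these Ly6c2 alone was called, higher in both comparisons (log2 1.63, limma adjusted p = 0.00571, in eMZB cells and 2.59, adjusted p = 0.00018, in TrB cells). The list summed to 50.6 to 58.4 in eMZB_KO, against 13 to 23 in eMZB_WT, and to 51.1 to 64.6 in TrB_KO, against 12.4 to 14.2 in TrB_WT. Most of that sum was Ly6c2, which averaged 49.1 ± 4.6 scaled FPKM in eMZB_KO, 15.8 ± 5.58 in eMZB_WT, 51.7 ± 7.3 in TrB_KO and 7.8 ± 1.75 in TrB_WT (SD, n = 3 each). The list median was log2 0.52 in eMZB cells, where Itgam was at 0.74 (limma adjusted p = 0.0793), Cd68 at 0.30 and Adgre1 at 0.10, none called. In TrB cells the median was 0.02, with Itgam at 0.39, Adgre1 at -0.51 and Cd68 at -0.36, none called. Of both marginal zone B cell markers, Cr2 was called higher in TrB_KO, at 13.3 ± 1.79 scaled FPKM, against 8.77 ± 1.14 in TrB_WT (SD, n = 3 each; log2 0.55, limma adjusted p = 0.0469). That call held in 2 of the 12 fits without a library, and in eMZB cells Cr2 was at -0.02. No proteasome member passed in either comparison.

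The genes that work with the proteasome were read from 4 lists chosen by function. Of 13 listed proteasome partners, 6 passed in eMZB_WT against TrB_WT (46.2%) and 4 in eMZB_KO against TrB_KO (30.8%), all higher, beside 27.4% of all genes called in each comparison. The knockout share lies near that of all genes. With the replicate block, 4 of 13 also passed in knockout cells, with Akirin2 in place of Usp14. Ubqln4, a shuttle for ubiquitinated proteins, averaged 5.95 ± 0.294 scaled FPKM in eMZB_WT and 2.55 ± 0.17 in TrB_WT (SD, n = 3 each; log2 0.97, limma adjusted p = 3.24e-05). Ecpas, a scaffold that holds the cap on the core, averaged 5.41 ± 0.16 in eMZB_WT and 3.81 ± 0.551 in TrB_WT (log2 0.42, adjusted p = 0.0103), and 5.62 ± 0.312 in eMZB_KO and 3.71 ± 0.323 in TrB_KO (log2 0.49, adjusted p = 0.00405). In wild-type cells Txnl1 was at 0.46, Rad23b at 0.43, Ubqln2 at 0.55 and the deubiquitinase Usp14 at 0.29, and in knockout cells Txnl1 was at 0.58, Ubqln4 at 0.47 and Usp14 at 0.32 (adjusted p = 0.0275, and 0.0932 with the block). Of the 12 fits without a library, the Usp14 call held in 4 and 7, in wild-type and knockout cells, Ubqln2 in 8 and Rad23b in 9. Pomp, the maturation factor of the 20S core, was at 0.03 (adjusted p = 0.835) in wild-type and 0.11 (adjusted p = 0.434) in knockout cells.

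The NRF1 axis holds the factor that is known to raise proteasome genes when the protease is limiting, with the enzymes that activate it and its partners. Of 9 listed genes, 4 were higher and 1 lower in eMZB_WT against TrB_WT, and 4 higher and 2 lower in eMZB_KO against TrB_KO. Over all genes, 14.6% were called higher and 12.7% lower in wild-type cells, and 14.2% and 13.2% in knockout cells. Nfe2l1, which encodes NRF1, had 12.8, 12.6 and 14.8 scaled FPKM in eMZB_WT, against 6.24, 6.24 and 5.78 in TrB_WT (log2 1.02, SE 0.13, adjusted p = 7.73e-05). It had 12.2, 11.5 and 13 in eMZB_KO, against 6.18, 5.89 and 8.77 in TrB_KO (log2 0.75, SE 0.13, adjusted p = 0.000834). The eMZB and TrB libraries of Nfe2l1 did not overlap. In wild-type cells Nfe2l2, which encodes NRF2, was at 0.74, the unfoldase Vcp at 0.61, the partner Mafg at 0.92 and the repressor Bach2 at -1.01. In knockout cells Nfe2l2 was at 0.57, Vcp at 0.43, Mafg at 1.31, Bach2 at -0.90 and the deglycosylase Ngly1 at -0.35 (adjusted p = 0.0488, and 0.0664 with the block). The other 5 knockout calls also passed with the block. In knockout cells the calls of Vcp and Ngly1 held in 8 and 3 of the 12 fits without a library.

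Class I processing was mixed. Of 12 listed genes, 3 were higher and 1 lower in eMZB_WT against TrB_WT, and 3 higher and 3 lower in eMZB_KO against TrB_KO. That is 33.3% and 50% of the list, beside 27.4% of all genes in each comparison. In wild-type cells B2m, the class I light chain, was at log2 0.45, H2-K1 at 0.50, the chaperone Pdia3 at 0.72 and Tapbpl, a tapasin relative, at -0.47 (0.33 on deposited FPKM). In knockout cells H2-K1 was at 0.22 (adjusted p = 0.0294, and 0.158 with the block, where the other 5 calls also passed), Pdia3 at 0.39, Nlrc5, the class I transactivator, at 0.52, Tapbpl at -0.59, Tap2 at -0.45 and H2-D1 at -0.49. The call of B2m held in 8 of the 12 fits without a library, that of H2-K1 in knockout cells in 7 and that of Nlrc5 in 10. Tap1, the head-to-head neighbour of Psmb9, averaged 25.8 ± 1.74 scaled FPKM in eMZB_KO, 23.8 ± 1.35 in eMZB_WT, 24.8 ± 3.65 in TrB_KO and 21.5 ± 2.29 in TrB_WT (SD, n = 3 each), and passed in no comparison. Tap2 was at -0.28 (adjusted p = 0.0828) and Nlrc5 at 0.26 (adjusted p = 0.168) in wild-type cells.

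Of 10 listed interferon regulators, 3 were higher and 1 lower in eMZB_WT against TrB_WT, and 2 higher and 2 lower in eMZB_KO against TrB_KO. That is 40% of the list in each comparison, beside 27.4% of all genes. All 4 knockout calls also passed with the block. In wild-type cells Irf7 was at log2 1.23, Irf8 at 0.31, the kinase Jak1 at 0.61 and Irf2 at -0.32 (0.49 on deposited FPKM). In knockout cells Irf8 was at 0.33, Jak2 at 0.65, Irf2 at -0.36 and Irf9 at -0.38. The Irf2 call held in 2 of the 12 fits without a library in wild-type and 9 in knockout cells, Irf9 in 9 and Jak2 in 2. Irf1 was at -0.03 (adjusted p = 0.825) in wild-type and -0.20 (adjusted p = 0.137) in knockout cells. Of the 44 genes of these lists, 0 passed between eMZB_KO and eMZB_WT and 0 between TrB_KO and TrB_WT by limma, and 0 in both by voom. At an unadjusted limma p under 0.05 stood 1 and 10 of them, beside 530 and 975 of all 9842 genes.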

How the data were processed

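The authors deposited a table of FPKM per Entrez gene. Per the labels' protocols, cDNA came from a SMART-Seq v4 kit and libraries from Nextera XT, which do not mark strand, and per the submitters' processing notes STAR and mm10 were used. The listing holds genes at 1 FPKM or above in 3 or more libraries. Symbols came from a RefSeq table of GRCm38.p6 and matched 9833 of 9842 IDs. FPKM were divided by median-of-ratios factors (0.6134 to 2.144) and tested as log2(FPKM + 1) with limma 3.58.1 (lmFit, eBayes with trend, R 4.3.3), all 12 libraries, 4 group means, 8 residual degrees of freedom, Benjamini-Hochberg adjustment. Fold changes on that scale understate low genes. FPKM steps gave whole reads for 9842 genes (tolerance 0.02 reads). The code of the fit was run on simulated data. These had independent noise, the same spread in every library and larger changes than those of the members, so they do not cover an outlying library. Alternatives were deposited FPKM, trimmed-mean scaling, a pseudocount of 0.1, a mean of 5 FPKM, voom on reads, 2-group fits, replicate blocks and leaving out libraries. The members and lists, and the scaling, were chosen with earlier results of these data known. Genes always named were the catalytic genes, Psme1 and Psme2. Others named were up to 8 called members with the smallest adjusted p in each direction and the largest rise and fall. Deviations of same-numbered libraries correlated at 0.161, 0.106 and 0.292 between eMZB_KO and TrB_KO, each over 0.1, so the block value stands beside that comparison. Psmb11 and Psma8 were not analysed here. Some genes of the comparison lists are not reported here.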

Additional observations from a re-analysis of the deposited data

How the results depend on the processing

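With the fits that left out a single library set aside, counts of called members moved by over 1.5 times in 1 comparison. That was eMZB_KO against TrB_KO, which gave 16, but 1 on deposited FPKM and 9 with the replicate block. In eMZB_WT against TrB_WT, 18 became 12 on deposited FPKM, 14 by voom, 15 in the fit of both groups alone, 13 with the replicate block there and 16 without both libraries of low Kdm1a. On deposited FPKM the wild-type log2 changes of Psmb10 (0.24), Psmd8 (0.51) and Psme3ip1 (0.44) turned positive, under a median shift of all genes of 0.67. Without 1 library at a time, the member counts ran over 9 to 21 in eMZB_WT against TrB_WT and 8 to 17 in eMZB_KO against TrB_KO, and stayed at 0 in both LSD1 comparisons and the interaction. The counts of all genes ran over 1944 to 3407 (eMZB_WT against TrB_WT), 1977 to 3082 (eMZB_KO against TrB_KO), 16 to 52 (eMZB_KO against eMZB_WT), 26 to 54 (TrB_KO against TrB_WT) and 1 to 5 (interaction). For TrB_KO against TrB_WT, 49 genes became 19 on deposited FPKM, 31 with a mean of at least 5 FPKM, 21 by voom, 9 in the fit of both groups alone and 1 with the replicate block there. For eMZB_KO against eMZB_WT, 40 became 15 on deposited FPKM, 23 at 5 FPKM, 65 in the fit of both groups alone and 23 without both libraries of low Kdm1a. For eMZB_WT against TrB_WT, 2693 became 1708 at 5 FPKM, where fewer genes were tested, and for eMZB_KO against TrB_KO, 2695 became 460 on deposited FPKM. The interaction went to 15, 0 and 2 on deposited FPKM, at 5 FPKM and without both libraries of low Kdm1a. The cause was not tested for the rest. By voom Psma1, Psmc6, Psmd10 and Psmg1 missed the threshold in wild-type cells. With the replicate block in wild-type cells, where same-numbered deviations correlated at 0.0701, 0.0155 and 0.273, not each over 0.1, 13 members passed. A pseudocount of 0.1 changed no member's call. Trimmed-mean scaling lost Psmd1 in knockout cells. The block over 12 libraries lost Psma2, Psmb1 and Psmd12 in knockout cells and, in wild-type cells, lost Psma1 and added Psmc2. The wild-type log2 ratio of Psmb10 to Psmb7 ran from -1.05 to -0.69 and that of Psmb8 to Psmb5 from -0.43 to -0.32 without 1 library. With 3 libraries a group, the smallest called member change was 1.18 fold (Psma1). On deposited FPKM the higher and lower calls over all genes were 1779 and 117, against 1440 and 1253 on scaled FPKM, in eMZB_WT against TrB_WT, and 387 and 73, against 1398 and 1297, in eMZB_KO against TrB_KO. The median of all genes there was 0.52 for TrB_KO against TrB_WT, 0.06 for eMZB_KO against eMZB_WT and -0.46 for the interaction, and that of the members 0.63, 0.11 and -0.55.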
